A study of Mus musculus with 6 samples.

Results

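The family of miR-204 and miR-211 was followed in extracellular vesicles of mouse brain as 4 entries, miR-204-5p, miR-204-3p, miR-211-5p and miR-211-3p, chosen by name from the 1926 miRNAs listed. Such vesicles are small membrane sacs shed by cells. Small RNA libraries were made from SE-BDEV samples, from brains of mice that had gone through status epilepticus (SE), a seizure that does not stop by itself, and from CON-BDEV samples, from matched control brains (CON), with 3 libraries in each group and a time of 24 hr in the series title. The labels used here give no strain, age or seizure-inducing agent, and do not say whether each library came from 1 animal or a pool, so p-values speak of the spread among these libraries, part of which may be technical. The comparison asks whether the abundance of these miRNAs in brain vesicles differed after status epilepticus.

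MicroRNAs are short RNAs that guide silencing proteins to messenger RNAs, mostly through the seed, the bases at positions 2 to 8. Each hairpin precursor yields a 5p and a 3p arm, and usually one arm is kept and the other is largely discarded. miR-204 is abundant in the epithelium of the choroid plexus, which makes cerebrospinal fluid, and in the retinal pigment epithelium, where it helps to keep the epithelial state. miR-211 is its close relative, best known from melanocytes, in which its host gene Trpm1 is driven by the pigment cell factor MITF.

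The mature sequences show the seed that the 5p arms share and the 3p arms do not. They are given 5′ to 3′ from RefSeq, which held all 4 entries, with the seed in capitals.

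miR-204-5p: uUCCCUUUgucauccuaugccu
miR-211-5p: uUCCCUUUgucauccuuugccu
miR-204-3p: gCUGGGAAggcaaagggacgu
miR-211-3p: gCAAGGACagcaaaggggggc

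The 5p arms were identical at 21 of 22 positions and shared the seed UCCCUUU. Their only difference, counted from 1 at the 5′ end of miR-204-5p, was A17U. The 3p arms were identical at 14 of 21 positions and had different seeds. Among 1679 mouse mature miRNAs of the RefSeq table, miR-7670-3p was the other one with the seed of the 5p arms, and it had 0 reads in all 6 libraries. miR-7684-5p, the other one with the seed of miR-204-3p, also had 0 reads. Of the 3 miRNAs with the seed UCCCUUU, miR-204-5p held 15979 reads over the 6 libraries and miR-211-5p held 3.

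The hairpins are shown with both arms in capitals, to place the arms compared below.

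Mir204: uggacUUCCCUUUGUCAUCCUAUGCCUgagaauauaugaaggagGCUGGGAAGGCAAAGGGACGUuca
Mir211: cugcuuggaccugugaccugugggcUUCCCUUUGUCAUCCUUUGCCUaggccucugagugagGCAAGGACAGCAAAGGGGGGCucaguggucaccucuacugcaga

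In GRCm38.p6, Mir204 lies at chr19:22750605-22750672 on the plus strand, within an intron of Trpm3 in all 18 annotated Trpm3 transcripts that span it. Mir211 lies at chr7:64205806-64205911 on the plus strand, within an intron of Trpm1 in all 12 that span it. Trpm3 and Trpm1 encode cation channels of the melastatin type and run on the same strand as their miRNAs. The deposited files give no coordinates.

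Depth ran from 6016533 to 10845434 miRNA reads over the SE libraries and from 5482407 to 6504884 over the CON libraries. SE replicate 1 was thus 1.79 times as deep as the mean of the others. In the deposited RPM table, in which the reads of each library are brought to the same total, the names went with the SE columns, and the CON rows were put back under their names through the base mean that the authors' deposited table of fold changes gives for each miRNA. For miR-204-5p the put-back CON total met 1 row with a relative difference of 3.24e-10, and the next closest row was 1.65% away. For miR-204-3p these values were 8.83e-11 and 0.914%. Every CON value below rests on this step. The files hold nothing that checks which columns are SE and which are CON.

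Neither arm of miR-204 differed between SE and CON vesicles beyond the spread between libraries. miR-204-5p, the main product of the family, stood at 382, 561 and 257 RPM in SE replicates 1, 2 and 3, against 293, 397 and 450 RPM in CON replicates 1, 2 and 3. The highest and the lowest of the 6 values were both SE libraries, and the groups overlapped. The means were 400.0 RPM ± 153 (SD, n = 3) in SE libraries and 380 RPM ± 79.9 (SD, n = 3) in CON libraries. The log2 fold change, SE over CON, was 0.03 with a standard error of 0.26 and an adjusted p of 0.966 by limma-trend. The fit used log2(RPM + 1), which shrinks the folds of scarce miRNAs. Its 95% interval runs from 0.700-fold to 1.48-fold, so these libraries do not separate changes within it from none. The sign rested on single libraries, with -0.25 without SE replicate 2 and -0.15 without CON replicate 1. In vesicle preparations from whole tissue, fewer vesicles of a cell type and less miRNA per vesicle cannot be told apart.

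**Figure D1:**
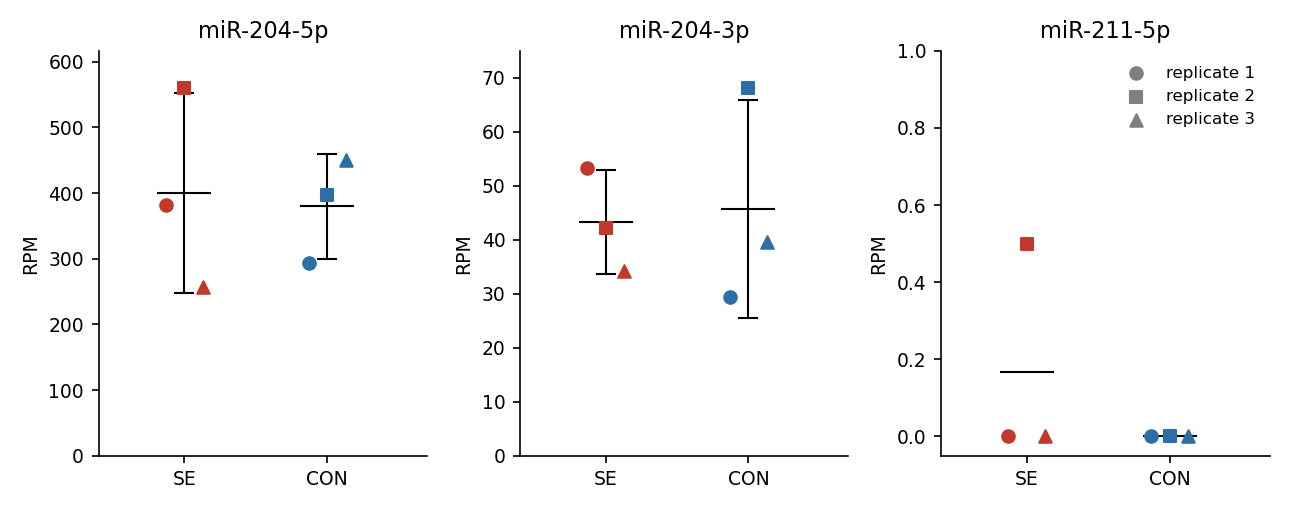
RPM of miR-204-5p, miR-204-3p and miR-211-5p in each library, SE left and CON right, with the group mean as a horizontal line and the SD (n = 3) as a bar for the miR-204 arms. The SE and CON values overlap for both arms, and miR-211-5p is above 0 in SE replicate 2 alone.

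miR-204-3p, the less abundant arm of the same hairpin, stood at 53.4, 42.2 and 34.2 RPM in SE replicates 1, 2 and 3, against 29.3, 68.2 and 39.5 RPM in CON replicates 1, 2 and 3. Here both extremes were CON libraries, and the groups again overlapped. The means were 43.3 RPM ± 9.62 (SD, n = 3) in SE libraries and 45.7 RPM ± 20.2 (SD, n = 3) in CON libraries. The log2 fold change was -0.01 with a standard error of 0.28 and an adjusted p of 0.984 by limma-trend, and its 95% interval runs from 0.657-fold to 1.50-fold. Its sign was positive with median-of-ratios scaling, at 0.09, and with quantile normalization, at 0.20. It was also positive without CON replicate 2, at 0.31, and without SE replicate 3, at 0.14. Across all miRNAs tested the median log2 fold change was -0.07 in RPM and 0.03 with median-of-ratios scaling.

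Testing covered the 290 miRNAs that averaged 10 RPM or more, of which 3 passed an adjusted p under 0.05 by limma-trend, which is 1.03%, and 0 of the 2 family members tested did. At an unadjusted p under 0.05 the share was 9.31%, again with 0 of the 2. All SE values lay on one side of all CON values for 14.8% of the 290 miRNAs and for 0 of these 2. The count of 3 was 6 without CON replicate 2 and 5 without CON replicate 3, and neither arm of miR-204 was among the calls.

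**Figure D2:**
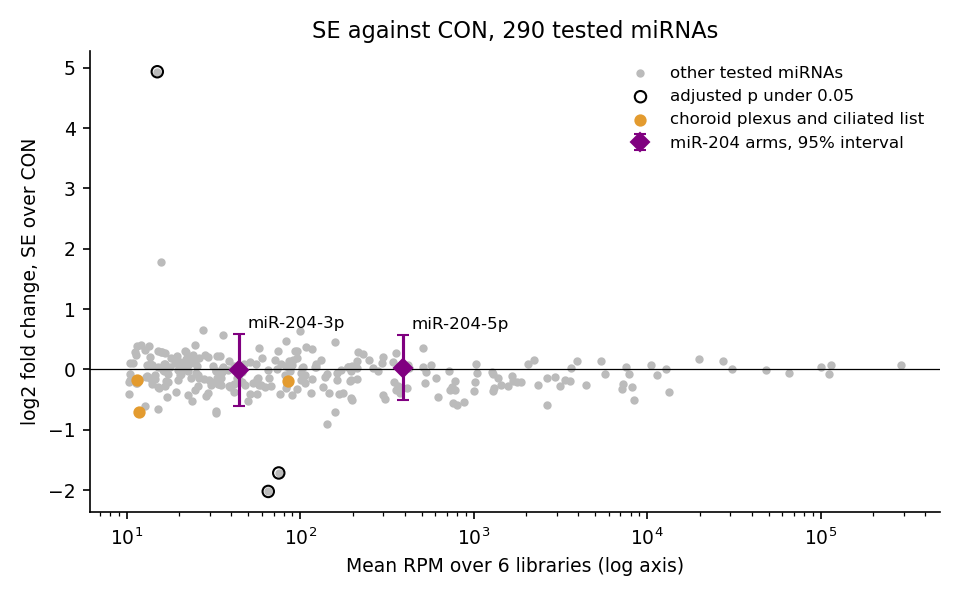
Log2 fold change, SE over CON, against the mean RPM over 6 libraries (log axis) for the 290 miRNAs tested. Both arms of miR-204 lie near 0 with 95% intervals that reach beyond 0.5 in either direction, away from the 3 circled miRNAs that passed.

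The authors' deposited table of fold changes lists 3 of the 4 members and calls none of them, where 1.04% of its miRNAs with an adjusted p are called. That table does not name its direction. Log2 ratios of the put-back CON reads over the SE reads, each divided by size factors, were -0.17 for miR-204-5p and 0.01 for miR-204-3p. The log2 fold changes in the authors' deposited table were -0.17 (standard error 0.32) and 0.01 (standard error 0.39), so its positive values stand for a higher level in CON columns. Its adjusted p is 0.975 for miR-204-5p and 0.991 for miR-204-3p in the authors' deposited table.

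miR-211 was nearly undetected. miR-211-5p had 3 reads in SE replicate 2, at 0.499 RPM, and 0 in the other 5 libraries. The limit that a count of 0 allows, 3 reads, is worth 0.277 to 0.547 RPM depending on the library and covers counting error only. The value in SE replicate 2 lies under that limit in CON replicates 1 and 2, at 0.536 and 0.547 RPM, and above it in SE replicates 1 and 3 and CON replicate 3. No library has a value worth a single read, the smallest being worth 2, so a 0 may also hide 1 read. In SE replicate 2 miR-211-5p made up 0.0889% of the reads of the 2 related 5p arms, with an exact Clopper-Pearson 95% interval of 0.0183% to 0.259%. In the other libraries the limit that a count of 0 allows lay between 0.0723% and 0.183%. The sources used here do not give how reads 1 base away from miR-204-5p were assigned. miR-211-3p had 0 reads in all 6 libraries. The log2 fold change of miR-211-5p in the authors' deposited table, -2.51, has a standard error of 3.98 and an adjusted p of 0.975. No difference of miR-211 between SE and CON libraries was detectable at this depth.

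The 4 family entries summed to 436, 603 and 291 RPM in SE replicates 1, 2 and 3, against 322, 465 and 489 RPM in CON replicates 1, 2 and 3. The groups overlapped, with means of 443 RPM ± 156 (SD, n = 3) in SE libraries and 426 RPM ± 90.4 (SD, n = 3) in CON libraries. The exact permutation test, two-sided, gave p = 1, where the smallest p that 3 libraries against 3 allow is 0.1. The difference in means was 17.9 RPM, and -62.1 RPM without SE replicate 2 and -33.8 RPM without CON replicate 1. This sum is 0.0291% to 0.0603% of the miRNA reads in SE and 0.0322% to 0.0489% in CON libraries. Between 85.3% and 92.9% of it was miR-204-5p. By rank of reads within a library, miR-204-5p stood between 57 and 77 and miR-204-3p between 149 and 206, among 573 to 616 miRNAs detected per library.

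The arms of miR-204 did not keep a fixed ratio from library to library. miR-204-5p reads were 7.16, 13.3 and 7.51 times those of miR-204-3p in SE replicates 1, 2 and 3, against 9.99, 5.82 and 11.4 times in CON replicates 1, 2 and 3. The 3p arm took 12.3%, 7.00% and 11.8% of the miR-204 reads in SE replicates 1, 2 and 3, against 9.10%, 14.7% and 8.07% in CON replicates 1, 2 and 3. SE replicate 2 was the lowest and CON replicate 2 the highest of the 6 libraries. The exact Clopper-Pearson 95% intervals, which cover counting error only, were 6.19% to 7.88% in SE replicate 2 and 11.3% to 13.2% in SE replicate 1. In CON libraries they were 13.3% to 16.1% in replicate 2, 7.81% to 10.5% in replicate 1 and 7.15% to 9.08% in replicate 3. Libraries of 1 group therefore differed by more than counting error, if each read is an independent count. Whether molecular identifiers were counted is not given. Between the groups the log2 ratio of the arms averaged 3.16 in SE libraries (SD 0.50, n = 3) and 3.12 in CON libraries (SD 0.51, n = 3), with an exact two-sided permutation p of 1. The difference of 0.04 was -0.25 both without SE replicate 2 and without CON replicate 2.

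**Figure D3:**
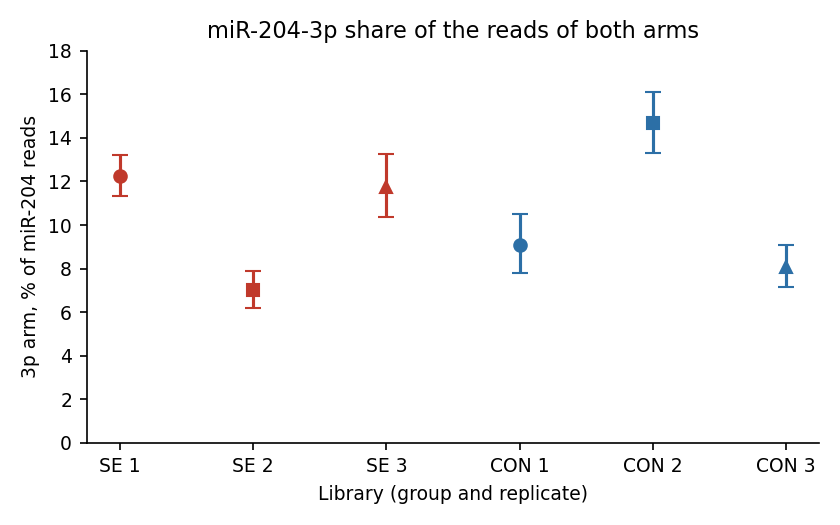
Share of miR-204 reads on the 3p arm in each library, in percent, with exact Clopper-Pearson 95% intervals as bars, for the SE libraries on the left and the CON libraries on the right. The share runs from 7.00% to 14.7%, and SE replicate 2 and CON replicate 2 lie outside the intervals of the other libraries of their groups.

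A like spread was seen for other hairpins. For 49 hairpins with both arms over 10 RPM, the SD of the log2 ratio of the arms within groups had a median of 0.35. That of miR-204 was 0.50, and it ranked 10 from the largest. Among the 18 hairpins whose weaker arm had a mean read count within 2-fold of that of miR-204, 6 had a larger SD and the median was 0.45. In 27 of the 49 hairpins the 5p arm was the more abundant one on average, as it was in miR-204.

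Both arms were among the more variable miRNAs of these libraries. The SD within groups on the log2 scale was 0.46 for miR-204-5p and 0.48 for miR-204-3p, against a median of 0.25 over the 290 miRNAs tested, and 32 and 22 of the 290 had a larger one. Among the 40 miRNAs within 2-fold of the level of miR-204-5p the median SD was 0.23. Counting error, with each read taken as an independent count, was smaller than this spread. With 1638 to 4147 reads per library, counting error for miR-204-5p was 1.55% to 2.47%, against coefficients of variation of 38.2% in SE and 21.0% in CON libraries. For miR-204-3p, with 164 to 579 reads, it was 4.16% to 7.81%, against 22.2% in SE and 44.2% in CON libraries.

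The arms of miR-204 did not have close profiles over the libraries. As a measure of likeness, each miRNA was centred on its own mean log2(RPM + 1), and the root-mean-square distance between profiles over the 6 libraries was taken, as a description with no test. By it miR-204-3p ranked 99 of 289 from miR-204-5p, at 0.41, near the median distance of 0.44. The 5 profiles closest to miR-204-5p were miR-690 (distance 0.24), miR-140-5p (0.25), miR-324-3p (0.25), miR-1187 (0.27) and miR-3097-5p (0.28). In each of these 5, SE replicate 3 was the lowest of the SE libraries, as for miR-204-5p. The choice by distance favours such shared features, here and for miR-204-3p below. The 5 closest to miR-204-3p, a comparison added after the values were seen, were miR-298-5p (0.14), miR-34c-5p (0.20), miR-125a-3p (0.22), miR-30c-2-3p (0.24) and miR-181d-5p (0.25). In all 5, CON replicate 2 was the highest of the CON libraries, and CON replicate 1 was the lowest other than for miR-125a-3p, which was at 153, 209.6 and 152 RPM in CON replicates 1, 2 and 3.

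**Figure D4:**
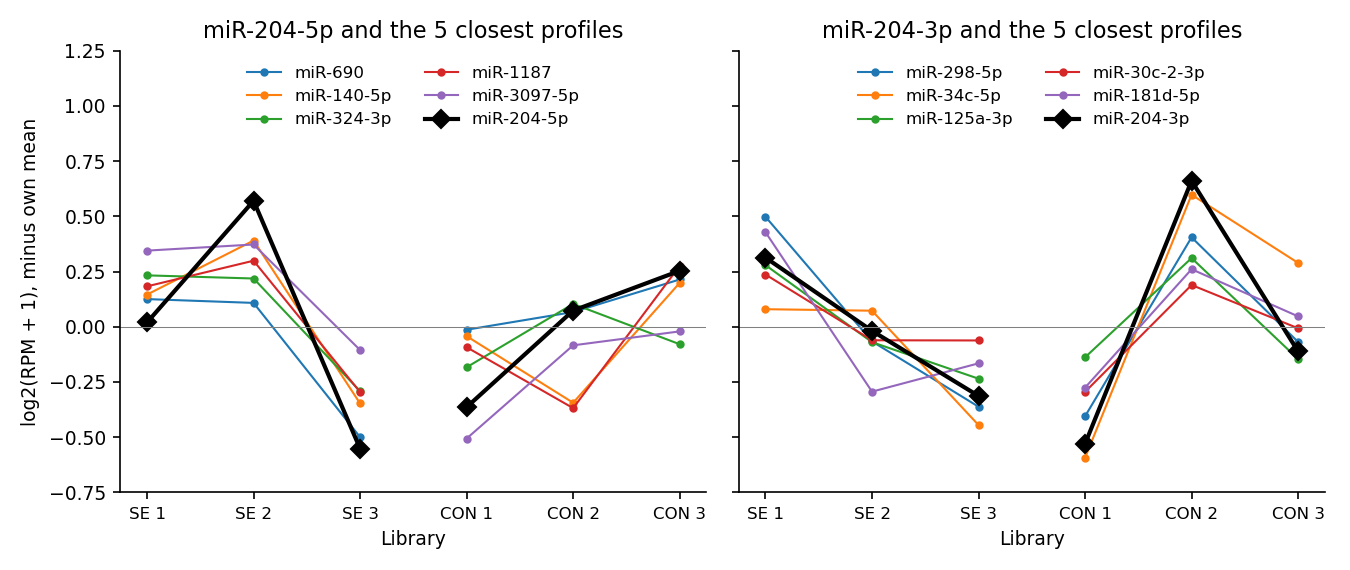
Centred log2(RPM + 1) in each library of miR-204-5p (left) and miR-204-3p (right), black diamonds, with the 5 miRNAs of the closest profiles. Lines join the values of 1 miRNA and imply no order of replicates, and the lowest value of miR-204-5p is in SE replicate 3 while that of miR-204-3p is in CON replicate 1.

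The family is one part of a list of 19 miRNAs of choroid plexus, ependyma and ciliated epithelium. Of these, 15 were detected, 5 were tested and 0 passed in either direction by limma-trend. The median log2 fold change of the 5 tested was -0.18, against -0.07 over all 290. miR-204-5p took 65.9% to 77.2% of the summed RPM of the list in SE and 61.2% to 70.1% in CON libraries. The list summed to 390 to 727 RPM in SE and 427 to 648 RPM in CON libraries.

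The other 3 members over 10 RPM are known from epithelial and ciliated cells, and their source in these vesicles was not measured. miR-34c-5p, which acts with miR-449 in the making of multiple motile cilia, stood at 86.7, 86.3 and 59.9 RPM in SE replicates 1, 2 and 3, against 54.0, 125 and 100.4 RPM in CON replicates 1, 2 and 3. Its groups overlapped, with a log2 fold change of -0.20 (standard error 0.28) and an adjusted p of 0.881 by limma. miR-449a-5p, its seed relative in ciliated cells, averaged 10.5 RPM ± 2.87 (SD, n = 3) in SE libraries and 12.3 RPM ± 4.92 (SD, n = 3) in CON libraries, with an adjusted p of 0.893 by limma. miR-429-3p, a member of the epithelial miR-200 family, stood at 9.50, 7.65 and 8.67 RPM in SE replicates 1, 2 and 3, against 17.5, 14.4 and 12.5 RPM in CON replicates 1, 2 and 3. All 3 SE values of miR-429-3p lay under all 3 CON values, a separation that 14.8% of the tested miRNAs showed in one direction or the other. Its log2 fold change of -0.71 (standard error 0.27) had an adjusted p of 0.373 by limma and did not pass.

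The remaining members of the list were scarce. The 9 that were detected under a mean of 10 RPM, leaving out the family, had at most 9.12 RPM in any library. miR-34b-3p, made from the same precursor cluster as miR-34c, was at 1.75, 1.83 and 1.64 RPM in SE replicates 1, 2 and 3, against 2.32, 3.47 and 2.46 RPM in CON replicates 1, 2 and 3, and its groups did not overlap. It was named after its values were seen, lay under the filter and was not tested by limma-trend. The share of 14.8% for groups that did not overlap covers the tested miRNAs only. The groups of miR-34b-5p, the other arm of the miR-34b hairpin, overlapped. They were at 1.66 to 2.77 RPM in SE and 2.15 to 3.47 RPM in CON libraries. miR-200a-3p averaged 3.24 RPM ± 1.60 (SD, n = 3) in SE libraries and 4.38 RPM ± 0.236 (SD, n = 3) in CON libraries. miR-182-5p, of the cluster expressed in sensory epithelia, averaged 4.71 RPM ± 1.69 (SD, n = 3) in SE libraries and 4.80 RPM ± 3.93 (SD, n = 3) in CON libraries. miR-449c-5p, miR-449b and miR-96-5p were at 0 in all 6 libraries.

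**Figure D5:**
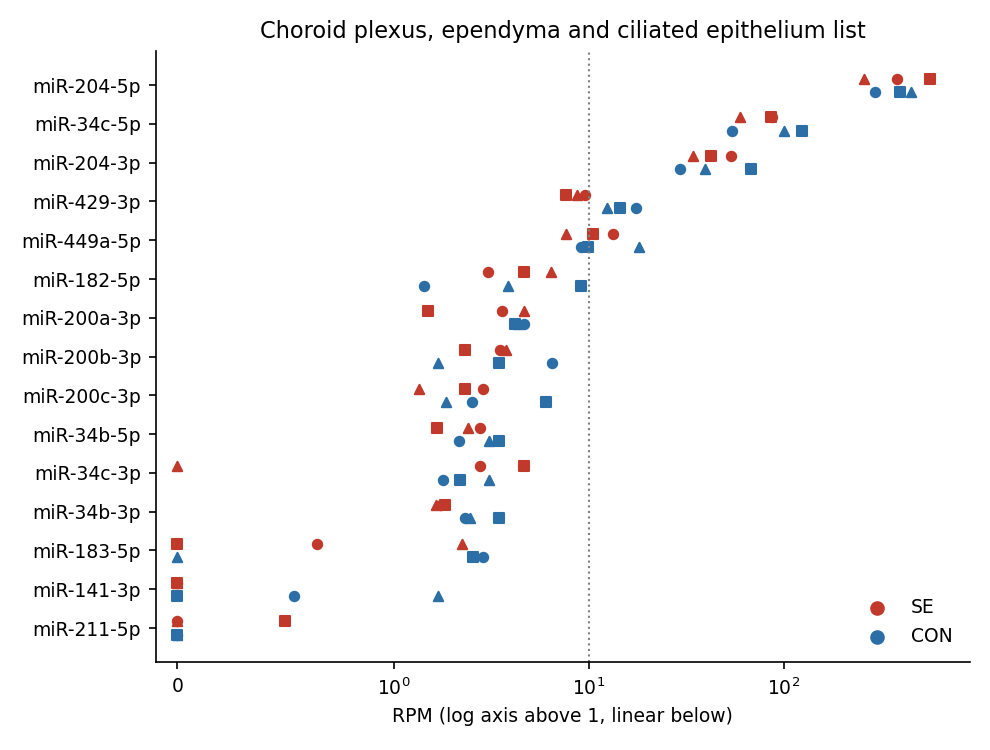
RPM of the 15 detected members of the choroid plexus, ependyma and ciliated epithelium list in each library (log axis above 1 RPM, linear below), with SE above CON in each row, marker shapes for replicates and the 10 RPM filter as a dotted line. miR-204-5p lies highest in every library and overlaps between the groups, and miR-429-3p is the one member over the filter whose groups do not overlap.

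Lists of miRNAs used as markers of other cells placed these levels. Whether their members mark those cells alone was not tested. The 10 neuronal miRNAs, among them miR-124-3p and miR-9-5p, summed to 51384 to 56282 RPM in SE and 53741 to 58939 RPM in CON libraries. All 10 were detected and 0 passed. The largest part was miR-7a-5p, at 18349 to 24660 RPM in SE and 17183 to 19404 RPM in CON libraries. The red cell marker miR-451a was at 0 in all SE libraries and above 0 in 1 CON library, and miR-144-3p and miR-144-5p were at 0 in all 6. miR-486a-5p/486b-5p, another red cell miRNA, was at 32.2, 16.8 and 25.4 RPM in SE replicates 1, 2 and 3, against 19.1, 28.5 and 28.6 RPM in CON replicates 1, 2 and 3. With miR-16-5p, which many cell types express, the 5 erythrocyte miRNAs summed to 7068 to 7609 RPM in SE and 7983 to 9497 RPM in CON libraries. Of them 2 were tested and 0 passed, with an adjusted p of 0.486 for miR-16-5p by limma-trend. The 5 miRNAs listed for astrocytes were miR-29a-3p, miR-29b-3p, miR-29c-3p, miR-143-3p and miR-24-3p. Their sum was 11919 to 12689 RPM in SE and 13495 to 17908 RPM in CON libraries. Of this sum, miR-29a-3p held 6458 to 7288 RPM in SE and 7703 to 11347 RPM in CON libraries. All 5 were tested and 0 passed, with an adjusted p of 0.191 for miR-29a-3p by limma-trend. Groups that did not overlap were seen for 14.8% of the 290 miRNAs tested, a share that does not cover sums. Summed levels were 262 to 344 RPM in SE and 319 to 463 RPM in CON libraries for 4 oligodendrocyte miRNAs. They were 4355 to 5240 RPM in SE and 4817 to 6715 RPM in CON libraries for 2 endothelial miRNAs. The 5 microglial and leukocyte miRNAs summed to 97.3 to 121 RPM in SE and 184 to 216 RPM in CON libraries. Of these, 3 were tested, and miR-155-5p was the 1 that passed. Its log2 fold change, SE over CON, was -2.02, with an adjusted p of 4.36e-06 by limma-trend.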

How the data were processed

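Small RNA of brain vesicles was sequenced with the QIAseq miRNA kit, per the labels' protocols. Not given in the sources used here are the aligner, counter, miRNA annotation and whether molecular identifiers were counted. Per the submitters' processing notes, the build was mm9, and DESeq2 is named. The authors' deposited RPM table scales reads to a fixed total per library. The second deposited table holds the base mean (a signal, the mean of normalized counts), log2 fold changes and standard errors, per the file headers. The same deposited table holds a Wald score, p-values and adjusted p-values, and was not refitted.

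Reads were recovered from the RPM steps, with the lowest value of each column taken as 2 reads: 100.0% of values were whole within 0.01 reads. The base mean times 6, less the SE reads divided by their size factors, gave the CON total of a miRNA. All 687 totals above 0 met a CON row (relative tolerance 1e-05), of which 597 met 1 row and 90 met rows with identical reads. The name changed for 665 rows. Put-back folds lay within 0.1 log2 of those in the authors' deposited table for 316 of 316 miRNAs with a base mean of at least 50. The base mean and the SE reads fix these folds. They thus check the SE names and size factors, and not which CON row was chosen. The put-back step was tested on simulated data.

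Groups were compared with limma 3.58.1 in R 4.3.3, with trend, on log2(RPM + 1), for miRNAs averaging at least 10 RPM, two-sided, with Benjamini-Hochberg adjustment over all tested. Sums and ratios used exact permutation tests over 20 splits. Other steps ran in Python 3.11.15 (scipy 1.17.1, numpy 2.4.6, matplotlib 3.10.9, pandas 2.3.3). Hairpins and mature miRNAs came from RefSeq (GRCm38.p6) and host introns from GENCODE on GRCm38, which is not the build of the files. The members and lists were chosen with earlier results of these data known. The rule for named miRNAs took the members, the detected members of the choroid plexus, ependyma and ciliated epithelium list over the filter, and the 5 profiles closest to miR-204-5p. Other miRNAs of the lists were named outside this rule, among them miR-155-5p, which passed. miR-34b-3p, miR-34b-5p, miR-200a-3p, miR-182-5p and the profiles near miR-204-3p were named after their values were seen.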

Additional observations from a re-analysis of the deposited data

How the results depend on the processing

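Neither arm of miR-204 passed the threshold under any alternative run, but the signs of their near-zero fold changes were not stable. For miR-204-5p the log2 fold change was -0.14 under the deposited names of the CON rows. Under those names the CON reads of miR-204-5p stand at miR-300-5p, so that setting compares different miRNAs. Its values here, for the fold, the family sum and the calls, do not bear on stability. With single libraries left out, the log2 fold change of miR-204-5p ran from -0.25 without SE replicate 2 to 0.31 without SE replicate 3. It was -0.15 without CON replicate 1. For miR-204-3p it was 0.091 with median-of-ratios scaling, 0.20 with quantile normalization and 0.0023 by limma-voom on recovered reads, an alternative chosen after seeing the data. With single libraries left out it ran from -0.28 without CON replicate 1 to 0.31 without CON replicate 2, and it was 0.14 without SE replicate 3. The summed family differed by -26.6 RPM under the deposited names, and by -62.1 RPM without SE replicate 2, -33.8 RPM without CON replicate 1 and 94.0 RPM at most. The log2 arm ratio ran from -0.25 to 0.23 with libraries left out. miR-211-5p, at 0.19 on the log2(RPM + 1) scale, ran from 0 without SE replicate 2 to 0.29. miRNAs called numbered 3 in RPM, 0 under the deposited names, and 3 to 6 with libraries left out, with 6 without CON replicate 2 and 5 without CON replicate 3. The cause was not tested.

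With the replicate number as a block, the log2 fold changes were 0.03 for miR-204-5p and -0.01 for miR-204-3p, and the count of calls was 3. The labels do not say whether the numbers pair the samples. Over the tested miRNAs, deviations of same-numbered SE and CON libraries correlated at -0.42, -0.25 and 0.04. Those of differently numbered libraries correlated at -0.20 to 0.42. With 3 libraries per group, each centred on its own mean, these correlations cannot decide whether the samples were paired. A filter of 50 RPM left out miR-204-3p. The planned log2 ratios that involve miR-211 had no value in libraries where it was at 0, so they were not tested. Depth limits what can be said of miR-211, and the spread between libraries limits what can be said of miR-204.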
